A study of Mus musculus with 12 samples.

Results

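The plasminogen activation system was described in mouse liver through 4 genes: Plat (tissue-type plasminogen activator, chromosome 8, ENSMUSG00000031538.7), Plau (urokinase, chromosome 14, ENSMUSG00000021822.4), Plaur (the urokinase receptor, chromosome 7, ENSMUSG00000046223.11) and Plg (plasminogen, chromosome 17, ENSMUSG00000059481.6). The 4 genes, of 21807 in the count tables, were chosen by name and role, with earlier results of NICD1/Akt samples against controls at both stages in view. Their own levels and fold changes are therefore given as a description, with no test. Counts of members among the genes past a threshold belong to the same description, and no conclusion is drawn from them. All 4 passed the filter on low counts at both stages.

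Gene expression was measured by RNA sequencing in 4 groups of mouse liver, each of 3 libraries (12 in all). NICD1/Akt samples came from C57BL/6J mice given plasmids for the Notch1 intracellular domain, myristoylated AKT and the Sleeping Beauty transposase by hydrodynamic tail vein injection (HTVI), and were taken 2 weeks (libraries 33, 34 and 35) or 3 weeks (libraries 1, 2 and 3) later. Control livers came from C57BL/6J mice labelled WT and served the 2-week stage (libraries 30, 31 and 32) and the 3-week stage (libraries 10, 11 and 12). The mice were described as males injected at 5 weeks of age. The controls had no injection, although their labels also give a time after HTVI, which is read here as their stage. NICD1/Akt tissue was labelled as cholangiocarcinoma (CCA) tumor, so that each comparison set tissue with this label against healthy liver. The study also calls these samples livers, and how much liver around the tumors they held was not measured. In HTVI the plasmids enter part of the hepatocytes, and the inserted transgenes drive the tumors of this model. Nothing in the labels says that the 3 libraries of a group are separate mice, so p-values measure the spread between libraries, which may be partly technical.

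Plasminogen is made mainly by hepatocytes and circulates as an inactive proenzyme. Tissue-type plasminogen activator, which works best on fibrin, and urokinase, which works at the cell surface bound to its receptor, cut it to plasmin. Plasmin dissolves fibrin and cleaves matrix proteins, and serpins hold both the activators and plasmin in check. In liver the system is known for clearing fibrin and matrix after injury, and in carcinomas for breaking down matrix around tumor cells.

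A pair of libraries stood apart from their groups. Among controls at 2 weeks, library 32 had 1875 CPM of Spp1 (osteopontin, high in biliary cells) and 381 CPM of Akt1, against 53.7 to 56.6 CPM of Spp1 and 90.1 to 90.9 CPM of Akt1 in libraries 30 and 31. Its Notch1 level of 106 CPM lay between the 101 and 119 CPM of NICD1/Akt libraries 33 and 34. Among NICD1/Akt samples at 2 weeks, library 35 had the highest levels of Spp1 (4256 CPM) and Akt1 (927 CPM). Ddx3y, which lies on the Y chromosome, had 52.2 to 126 CPM in all 3-week libraries and 57.2 CPM in control library 32. The remaining 5 libraries of 2 weeks had 0 to 0.398 CPM, which goes against a description of all mice as males. The stage of a library, apart from control 32, and this difference cannot be told apart. The values of library 32 go against its label, so that its place among the controls is in doubt. It is kept as labelled, and the members' 2-week values and their differences between stages are given with and without libraries 32 and 35. What each value against 2-week controls or all 6 controls means depends on that label. CPM are read counts scaled to library size, on TMM (trimmed mean of M-values) scaling over the 12 libraries.

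Tissue-type plasminogen activator and urokinase were both far higher in NICD1/Akt samples than in controls at 3 weeks, and plasminogen was lower. Plat was 29.3-fold and Plau 28.0-fold higher, while Plg was 2.19-fold lower. Plaur did not follow the activators: its groups overlapped. The share of members called was read against a background in which 38.9% of the 13408 genes tested were higher and 33.1% lower at an adjusted p under 0.05. Of the members, 2 were among the higher and 1 among the lower genes. Groups did not overlap for 3 of the 4 members, and for 76.8% of all genes.

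Plat had 20.8, 25.2 and 21.4 CPM in NICD1/Akt libraries 1, 2 and 3, from 550, 685 and 459 reads, against 0.604, 0.522 and 1.33 CPM in control libraries 10, 11 and 12, from 7, 6 and 16 reads. Every NICD1/Akt library thus lay well above every control, and control 12 was the highest of the controls. For Plat the log2 fold change was 4.87 (SE 0.26), or 5.42 without control library 12.

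Plau had 8.94, 9.50 and 8.53 CPM in NICD1/Akt samples, from 236, 258 and 183 reads. Control livers had 0.431, 0.435 and 0.167 CPM, which is only 5, 5 and 2 reads. The 3 NICD1/Akt libraries were close to each other, and the size of the fold rested on few control reads. On the log2 scale Plau differed by 4.81 (SE 0.28), with a range of 4.47 to 5.0 as each library was left out.

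**Figure D1:**
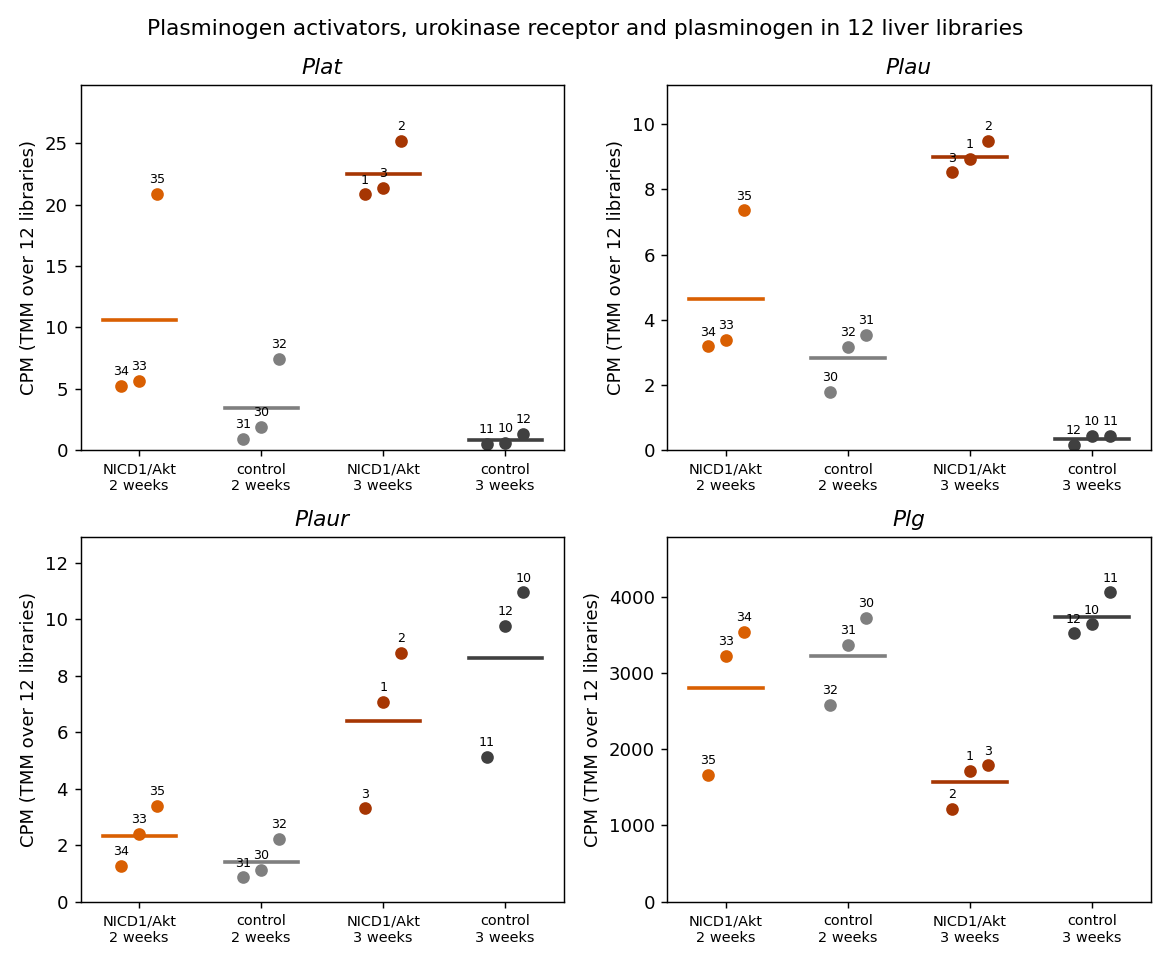
Level of each of the 4 genes in every library, in CPM (TMM over 12 libraries), by group. Points are libraries with their numbers and horizontal lines are group means. Plat and Plau are above all controls in NICD1/Akt libraries 1, 2 and 3, at 20.8 to 25.2 and 8.53 to 9.50 CPM, and the late controls hold the highest Plaur value, 10.95 CPM.

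Plg, the substrate of both activators, had 1715, 1217 and 1787 CPM in NICD1/Akt samples at 3 weeks, against 3635, 4054 and 3517 CPM in controls. The groups did not overlap, and NICD1/Akt library 2 was the lowest. On the log2 scale Plg differed by -1.13 (SE 0.18). Plasminogen remained by far the most abundant of the 4 transcripts, also per length: 424 ± 83.7 CPM per kb of exon in NICD1/Akt samples and 1007 ± 76.1 in controls (SD, n = 3 each). The summed level of 6 hepatocyte markers was lower as well, at 23530 to 35058 CPM in NICD1/Akt samples and 98445 to 102970 CPM in controls. Alb alone made up 16272 to 23068 and 67521 to 69900 CPM of these sums. All 6 markers were lower at an adjusted p under 0.05, and in bulk tissue fewer cells of a type and less RNA per cell cannot be told apart. Between control stages the sum, which is mostly Alb, did not move as Plg did. The sum had a median of 160036 CPM at 2 weeks and 100945 CPM at 3 weeks, where Plg averaged 3222 and 3735 CPM. Alb averaged 111670 and 69045 CPM. Other markers averaged higher at 3 weeks: Apoa1 10091 and 13491 CPM, Cps1 3976 and 4776 CPM, and Hnf4a 942 and 1616 CPM. Ttr (6470 and 6192 CPM) and Cyp2e1 (5666 and 5667 CPM) changed little. The median log2 difference of the 6 markers was 0.13, with 0 called higher and 0 lower.

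Plaur had 7.08, 8.80 and 3.31 CPM in NICD1/Akt samples at 3 weeks, against 10.95, 5.14 and 9.75 CPM in controls. NICD1/Akt library 3 was lowest and control library 10 highest, with the others mixed between the groups. The log2 fold change of Plaur was -0.30 (SE 0.38). Of Plat, Plau and Plaur, the receptor was thus the one without separate groups at 3 weeks.

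Counts of Plat and Plau in tumors were accompanied by markers of several cell types. The numbers of markers that rose or fell stand beside 38.9% of all genes higher and 33.1% lower at 3 weeks. Of the 6 cholangiocyte markers, 5 were tested and 5 rose, with a summed level of 3372 to 3960 CPM in NICD1/Akt samples against 73.3 to 116 CPM in controls at 3 weeks. Spp1 alone made up 3027 to 3545 CPM of the sum in NICD1/Akt samples, and the other 5 markers summed to 324 to 415 CPM in NICD1/Akt samples and 39.1 to 73.2 CPM in controls. Of 8 stellate cell and fibroblast markers 6 rose, with sums of 2485 to 3384 CPM against 206 to 303 CPM. Collagen genes made up most of the sum in NICD1/Akt samples, where Col1a1, Col1a2 and Col3a1 averaged 1115, 648 and 1025 CPM. Dcn, at 115 against 133 CPM, and Lrat, at 8.04 against 8.81 CPM, did not rise. All 7 monocyte and macrophage markers rose, with sums of 143 to 174 CPM against 60.2 to 84.3 CPM. Markers of Kupffer cells, the resident macrophages of the liver, went the other way. All 4 fell, with sums of 88.6 to 111 CPM against 185 to 246 CPM. Endothelial markers, of cells known to make tissue-type plasminogen activator, had sums of 275 to 321 CPM in NICD1/Akt samples and 323 to 375 CPM in controls. These sums hide markers that moved apart, as 3 of 8 rose and 2 fell. Vwf was at 46.1 to 71.9 CPM in NICD1/Akt samples against 10.4 to 12.7 CPM in controls. Stab2 (50.6 to 70.2 against 90.1 to 103 CPM) and Clec4g (30.5 to 41.2 against 86.4 to 93.6 CPM) were lower. Of 7 neutrophil markers 4 were tested and 1 rose, with sums of 12.7 to 19.6 CPM against 7.85 to 9.75 CPM. The defining marker Ly6g had 0 reads in the controls and 1 read in all in NICD1/Akt samples at 3 weeks. Platelet and megakaryocyte markers summed to 2.14 to 4.55 CPM against 4.57 to 6.34 CPM. The part of these cell types in the activator levels was not tested.

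At 2 weeks the groups of all 4 genes overlapped. Plat had 5.64, 5.25 and 20.9 CPM in NICD1/Akt libraries 33, 34 and 35, against 1.86, 0.937 and 7.42 CPM in control libraries 30, 31 and 32. Library 35 was at the level of the 3-week tumors, and library 32 was above NICD1/Akt libraries 33 and 34. Cholangiocyte markers moved alike, with sums of 1139, 1317 and 4595 CPM in libraries 33, 34 and 35, against 68.1, 66.2 and 1982 CPM in libraries 30, 31 and 32. Without Spp1 the sums were 85.0, 81.0 and 339 CPM, against 11.5, 12.5 and 106 CPM, and their part in the Plat level was not tested. On the log2 scale Plat differed by 1.67 (SE 0.88), and it was 2.95 without control library 32 and 0.68 without NICD1/Akt library 35.

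Plau had 3.39, 3.18 and 7.36 CPM in NICD1/Akt samples at 2 weeks, against 1.80, 3.53 and 3.17 CPM in controls. Only library 35 lay above all controls. For Plau the fold change was 0.73 (SE 0.45) on the log2 scale, with 0.83 without control library 32 and 0.20 without NICD1/Akt library 35.

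Plaur had 2.39, 1.26 and 3.38 CPM in NICD1/Akt samples at 2 weeks, against 1.13, 0.865 and 2.24 CPM in controls. The receptor was low in all 6 libraries, from 12 to 86 reads. Its log2 fold change was 0.76 (SE 0.53), with 1.25 without control library 32 and 0.37 without NICD1/Akt library 35.

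Plg had 3225, 3534 and 1658 CPM in NICD1/Akt samples at 2 weeks, against 3723, 3369 and 2575 CPM in controls. Libraries 35 and 32 were the lowest of their groups, and these were also the libraries with the lowest hepatocyte marker sums, at 59591 and 92385 CPM. The log2 fold change of Plg was -0.19 (SE 0.37), and it was -0.34 without control library 32 and 0.06 without NICD1/Akt library 35. At this stage 0% of the 13041 genes tested were higher and 0% lower at an adjusted p under 0.05 by edgeR, where DESeq2 called 27 genes and the likelihood ratio test 12. None of the 4 members was among the genes past an unadjusted p under 0.05, 4.90% on the higher and 3.69% on the lower side. Groups stood clear of each other for 0 of the 4 members and for 16.1% of all genes.

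**Figure D2:**
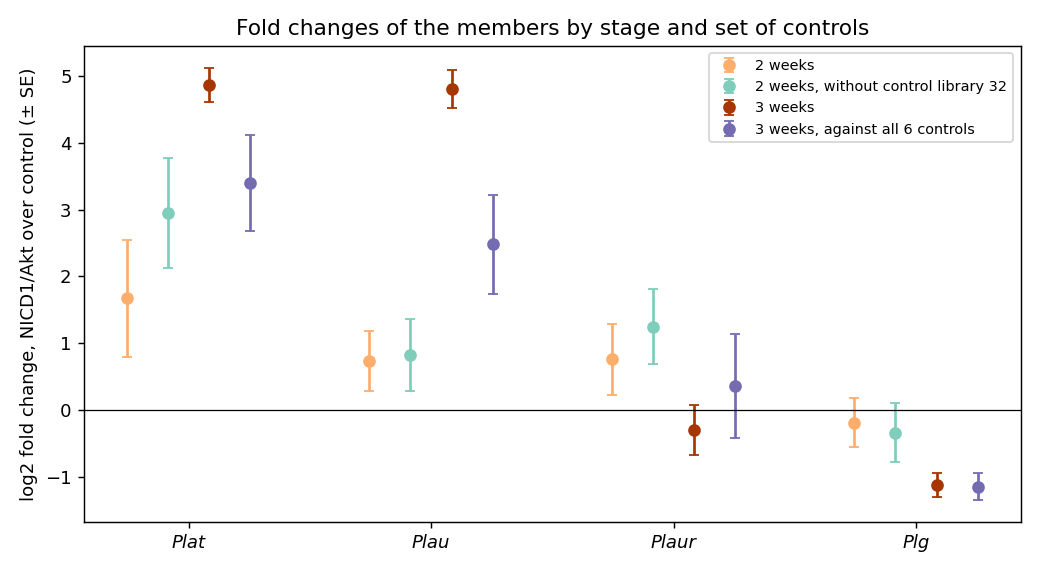
Log2 fold change of NICD1/Akt samples over controls for each gene, with standard errors, at 2 weeks, at 2 weeks without control library 32, at 3 weeks, and at 3 weeks against all 6 controls. Plat and Plau are at 4.87 and 4.81 at 3 weeks and at 3.40 and 2.48 against all 6 controls, while Plaur is on both sides of 0.

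Between stages the activators averaged higher at 3 weeks in tumors and lower at 3 weeks in controls. Within NICD1/Akt samples, the log2 difference of 3 minus 2 weeks was 1.07 (SE 0.65) for Plat and 0.94 (SE 0.35) for Plau, or 2.04 and 1.45 without library 35. Within controls it was -2.02 (SE 0.85) for Plat and -3.02 (SE 0.48) for Plau, or -0.79 and -2.95 without library 32. The fold change at 3 weeks minus that at 2 weeks was accordingly 3.09 (SE 1.07) for Plat and 3.95 (SE 0.60) for Plau, with 1.83 and 3.87 without control library 32 and 4.06 and 4.46 without NICD1/Akt library 35. A large part of the gap between stages in Plau was thus in the controls, of which the late libraries 10, 11 and 12 had 5, 5 and 2 reads and the early libraries 30, 31 and 32 had 27, 49 and 41. Set against all 6 controls, the log2 fold change at 3 weeks was 3.40 (SE 0.72) for Plat and 2.48 (SE 0.74) for Plau. Against the 5 controls other than library 32 it was 4.53 (SE 0.34) for Plat and 2.93 (SE 0.72) for Plau.

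Plaur averaged higher at the late stage in both kinds of liver. The log2 difference of 3 minus 2 weeks was 1.42 (SE 0.48) in NICD1/Akt samples and 2.61 (SE 0.52) in controls, and the fold change at 3 weeks minus that at 2 weeks was -1.19 (SE 0.69). Without library 35 the first was 1.80 and the last -0.81, and without library 32 the difference in controls was 3.08 and the last -1.67. Plg moved less, by -0.83 (SE 0.29) in NICD1/Akt samples and 0.21 (SE 0.29) in controls, with -1.05 (SE 0.42) between the effects. For Plg the values were -1.10 in NICD1/Akt samples and -1.32 between the effects without library 35, and 0.06 in controls and -0.89 between the effects without library 32. Between stages, 15.0% of 13829 genes had a higher and 15.8% a lower effect at 3 weeks, and 2 members were among the higher. In controls, 17.4% of genes were higher and 20.4% lower at 3 than at 2 weeks, and 1 member was on each side, Plaur and Plau.

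Egr1, Fos and Atf3, transcription factor genes that respond within minutes to hours of stress, were also higher in the late than in the early controls. These 3 genes were chosen after their values were seen, not from a list. At 3 weeks Egr1 reached 56.5 to 87.9 CPM in NICD1/Akt samples and 1018 to 1225 CPM in controls, while the 2-week controls had 70.3 to 116 CPM. Fos was at 6.71 to 18.4 CPM in NICD1/Akt samples and 28.3 to 36.9 CPM in controls at 3 weeks, and at 1.73 to 4.17 CPM in the 2-week controls. Atf3 was at 14.9 to 29.5 CPM in NICD1/Akt samples and 20.2 to 139 CPM in controls at 3 weeks, and at 1.51 to 3.94 CPM in the 2-week controls. Among the 3-week controls, library 11 was lowest for Plaur and for Atf3 but highest for Egr1 and Fos. The part of these genes in the Plaur level was not tested.

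The promoter of Plaur is shown as the only one of the 4 members' promoters in the RefSeq tables used here. The 250 bases before the RefSeq start (GRCm38.p6, chr7:24462233-24462482, plus strand) hold 1 match to the AP-1 motif TGANTCA, in capitals, whose first base lies 69 bases before the start. The motif reads the same on both strands, and both were searched for each motif. Such a match is present in 6.75% of 32851 promoter windows of the same length. The GC-box motif GGGCGG, which does not overlap it, is found 3 times, against at least 1 match in 32.7% of windows. These matches are a description of letters and show no binding.
Plaur: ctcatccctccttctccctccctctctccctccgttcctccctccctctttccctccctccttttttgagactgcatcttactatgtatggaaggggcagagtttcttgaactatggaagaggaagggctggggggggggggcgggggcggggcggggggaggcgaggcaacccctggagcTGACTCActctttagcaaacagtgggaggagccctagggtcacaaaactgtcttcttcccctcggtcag

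Levels per kb of exon were CPM divided by all exon bases annotated for a gene in GENCODE M21. These were 6241 for Plat, 2367 for Plau, 2617 for Plaur and 8287 for Serpine2. A transcript that uses only part of these bases gets too low a value, so the order of genes depends on these lengths. On this scale Plat and Plau had similar values in tumors, while before it they averaged 22.5 and 8.99 CPM at 3 weeks. In NICD1/Akt samples at 3 weeks, Plat was at 3.60 ± 0.38 and Plau at 3.80 ± 0.21 CPM per kb, which differed by less than their spread, and Plaur was at 2.44 ± 1.07 (SD, n = 3), its libraries overlapping those of Plat. In controls at 3 weeks the order differed: Plaur stood highest, at 3.29 ± 1.17, and Plat at 0.131 ± 0.072 and Plau at 0.146 ± 0.065 did not differ beyond their spread. In NICD1/Akt samples at 2 weeks Plau was at 1.96 ± 0.99, Plat at 1.70 ± 1.43 and Plaur at 0.896 ± 0.406. Plat overlapped both, whereas the libraries of Plau, at 1.34 to 3.11, lay just above those of Plaur, at 0.481 to 1.29. In controls at 2 weeks Plau was at 1.20 ± 0.39, Plat at 0.546 ± 0.561 and Plaur at 0.540 ± 0.279. The libraries of the 3 genes overlapped, with the lowest for Plau at 0.759 and the highest for Plat and Plaur at 1.19 and 0.856.

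Serpine2 (protease nexin 1), a serpin that inhibits both activators, was at 9.12 ± 0.90 CPM per kb in NICD1/Akt samples at 3 weeks and 1.48 ± 0.22 in controls (SD, n = 3 each). At 2 weeks Serpine2 was at 2.91 ± 2.55 in NICD1/Akt samples and 1.56 ± 1.48 in controls, with overlapping values.

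**Figure D3:**
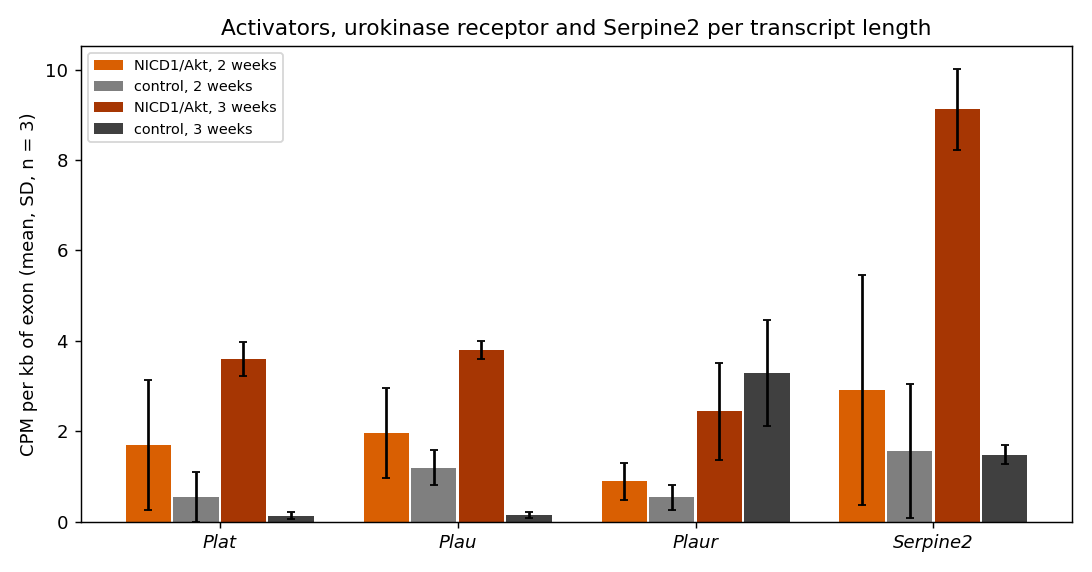
Mean level per kb of exon (CPM per kb; error bars SD, n = 3) of the activators, the urokinase receptor and the inhibitor Serpine2 in the 4 groups. At 3 weeks Plat and Plau are level with each other in NICD1/Akt samples, at 3.60 and 3.80, below Serpine2 at 9.12. The order of genes depends on the lengths used, which count all annotated exon bases of a gene.

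The wider system was described with 46 further genes in 6 lists by role. Of 44 tested at 3 weeks, 22 rose and 18 fell in NICD1/Akt samples, against 38.9% and 33.1% of all genes; the median log2 fold change was 0.53 for these genes and 0.06 for all. Groups did not overlap for 40 of them, beside 76.8% of all genes. The 3-week counts of each list below stand beside the same shares of 38.9% and 33.1%. Under scaling by library size only, 25 rose and 11 fell, while of all genes called 9076 of 10363 were then higher, in place of 5218 of 9650. At 2 weeks, of 41 tested, 0 rose and 0 fell by the quasi-likelihood test, beside 0% of all genes, and 0 by DESeq2 and the likelihood ratio test, which called the 27 and 12 genes in all given above; without adjustment, 7 passed p under 0.05 on the higher and 1 on the lower side, against 4.90% and 3.69% of all genes.

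Other proteases that activate plasminogen or pro-urokinase split, with 1 of 6 higher and 5 lower at 3 weeks. St14 (matriptase, an epithelial membrane protease that can activate pro-urokinase) had 36.0 to 49.9 CPM in NICD1/Akt samples and 0.958 to 1.33 CPM in controls, so that groups were far apart. Its log2 fold change was 5.28 (SE 0.20, adjusted p = 3.05e-07), near the size of those of the activators. Of the lower ones, these 3 are made largely in hepatocytes: F11 (coagulation factor XI) fell by 1.46 (adjusted p = 0.000157), Hpn (hepsin) by 1.19 (adjusted p = 0.000224) and F12 (factor XII) by 1.04 (adjusted p = 0.000242) on the log2 scale.

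Of 5 inhibitors of the activators, 4 were tested at 3 weeks, of which 3 rose and 1 fell. Serpine2 had 70.5, 84.2 and 72.1 CPM in NICD1/Akt samples and 12.9, 13.7 and 10.3 CPM in controls, a log2 fold change of 2.74 (adjusted p = 9.49e-07). Serpini1 (neuroserpin, an inhibitor of tissue-type activator) was at 1.26 to 2.24 CPM against 0.333 to 0.604 CPM, with a log2 fold change of 2.06 (adjusted p = 0.00195). Serpina5 (protein C inhibitor, which also blocks urokinase) was at 0.331 to 1.30 CPM against 2.35 to 2.75 CPM and fell by 1.41 on the log2 scale (adjusted p = 0.0174), a call lost without control library 12 (-1.37), under library size scaling (-0.72), in the fit of 12 libraries (-1.51) and against all 6 controls (-0.70). Serpinb2 had too few reads to be tested.

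Of the 4 inhibitors of plasmin and of fibrin breakdown, 1 rose and 3 fell. A2m (alpha-2-macroglobulin, a broad trap of proteases) had 94.5, 111 and 60.8 CPM in NICD1/Akt samples at 3 weeks and 3.19, 0.348 and 3.42 CPM in controls. Its log2 fold change was 5.37 (SE 0.47, adjusted p = 2.24e-05). In 2-week NICD1/Akt samples A2m was at 0.531, 0.444 and 2.01 CPM, so that library 35, which had Plat at the 3-week level, did not have A2m at it. Serpinf2 (alpha-2-antiplasmin) fell by 1.31 (adjusted p = 0.000119), Pzp by 1.07 (adjusted p = 0.000704) and Cpb2, a carboxypeptidase that protects fibrin, by 0.91 (adjusted p = 0.00028) on the log2 scale, and the call of Cpb2 was lost under library size scaling, at -0.21.

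Cell-surface receptors of plasminogen included both parts of the annexin A2 complex, which moved apart. Of 5, 3 rose and 1 fell. Anxa2 had 174, 214 and 157 CPM in NICD1/Akt samples at 3 weeks and 16.6, 9.05 and 28.8 CPM in controls, a log2 fold change of 3.44 (adjusted p = 5.99e-05). S100a10, whose protein binds annexin A2 and carries the plasminogen-binding end, had 59.7, 112 and 47.4 CPM in NICD1/Akt samples and 258, 167 and 335 CPM in controls, and fell by 1.68 on the log2 scale (adjusted p = 0.00248). Plgrkt was at 5.22 to 8.95 CPM against 1.48 to 2.93 CPM, a log2 fold change of 1.84 (adjusted p = 0.000665), a call lost against all 6 controls at 0.56. Eno1 (enolase) differed by 1.39 on the log2 scale (adjusted p = 9.89e-06), but near-identical copies of the gene could share its reads, and the call was lost against all 6 controls, at 0.74. Krt8 was at 0.21.

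Of 14 partners and clearance receptors of the urokinase receptor, 9 rose and 3 fell. Mrc2, which binds urokinase receptor complexes and takes up collagen, had 33.6, 41.4 and 34.8 CPM in NICD1/Akt samples at 3 weeks and 3.45, 4.44 and 3.42 CPM in controls, a log2 fold change of 3.40 (adjusted p = 6.61e-07). The integrin subunits Itga3, Itgam and Itgav had log2 fold changes of 1.84 (adjusted p = 3.91e-06), 2.96 (adjusted p = 4.38e-05) and 1.35 (adjusted p = 0.000126). Itgam, which marks myeloid cells, moved beside the monocyte and macrophage markers given above.

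Of 11 substrates tested of 12, 5 rose and 5 fell, beside 38.9% and 33.1% of all genes. The fibrinogen chains, the precursor of the fibrin that plasmin dissolves, fell together: Fga by 1.68 (adjusted p = 0.000118), Fgb by 1.57 (adjusted p = 0.000104) and Fgg by 1.62 (adjusted p = 0.00011) on the log2 scale. Mmp2, a gelatinase, was at 16.4 to 18.4 CPM in NICD1/Akt samples and 1.57 to 4.83 CPM in controls, a log2 fold change of 2.53 (adjusted p = 9.56e-05), which was 0.87 and no longer called against all 6 controls. Thbs1 was at 0.54, and Mmp3 had too few reads to be tested.

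**Figure D4:**
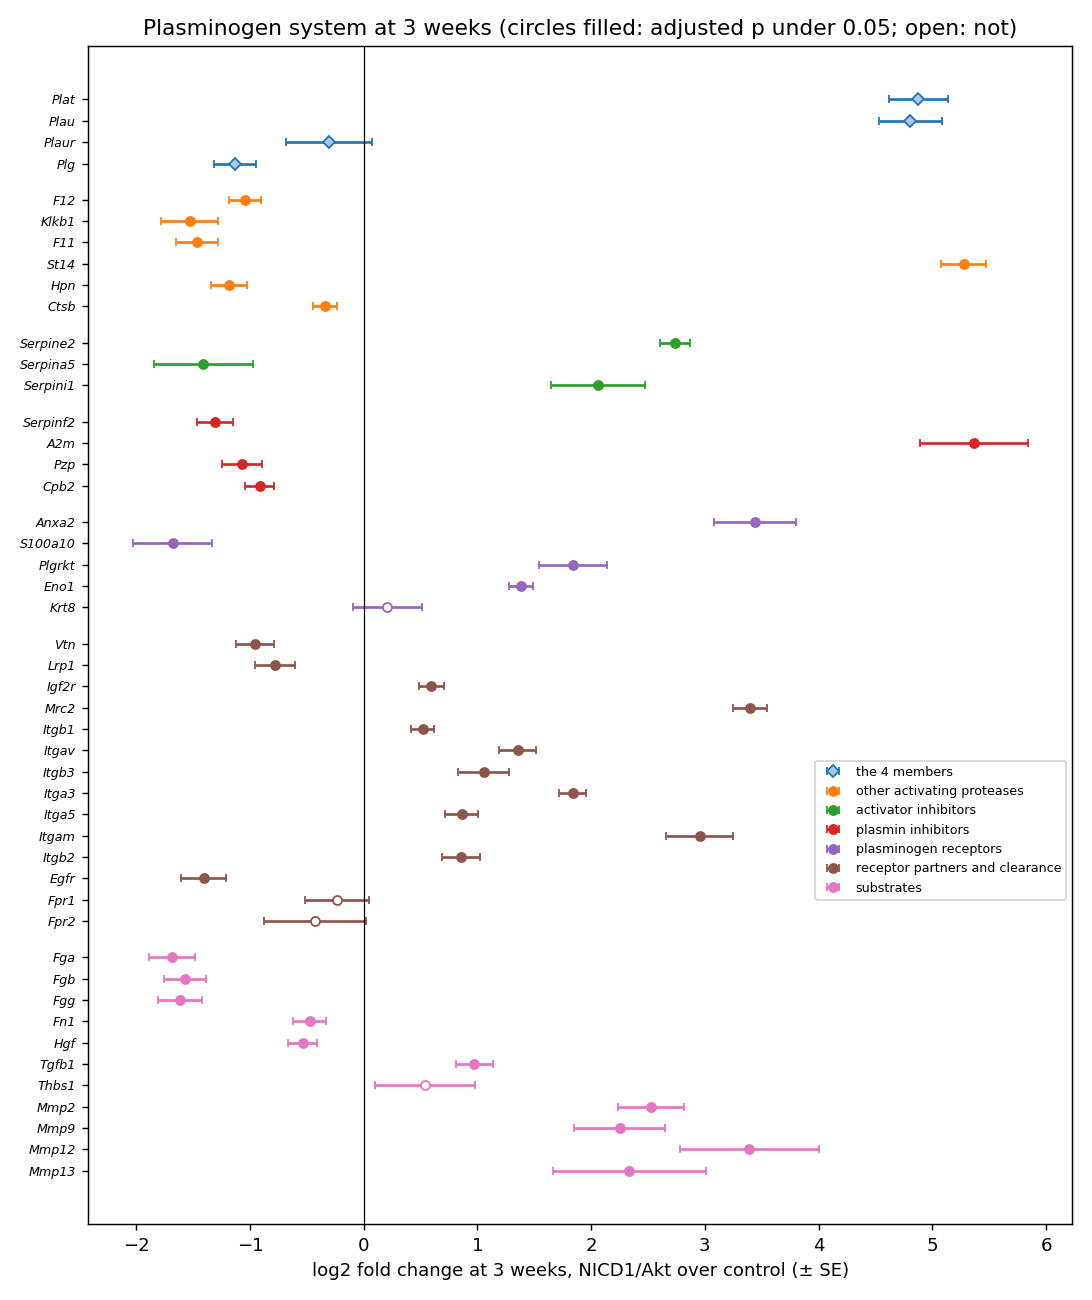
Log2 fold change at 3 weeks (NICD1/Akt over control, with standard errors) of the 4 genes described here, drawn as diamonds, and of further genes of the system, drawn as circles and coloured by role; filled circles have an adjusted p under 0.05. Plat and Plau lie at 4.87 and 4.81, close to St14 at 5.28 and A2m at 5.37.

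The effect differed between stages for 8 of 44 further genes: it was above that at 2 weeks for 3 and below it for 5, beside 15.0% and 15.8% of all genes. These counts moved with single libraries: they were 10 and 15 without NICD1/Akt library 35. They were 1 and 3 without any single one of libraries 1, 3, 33 and 34 (NICD1/Akt) and 10 and 32 (controls), and 1 and 4 without library 2 (NICD1/Akt) or 11 (control). Without control library 30, 31 or 12 they were 5 and 3, 4 and 3, and 2 and 3, in that order of libraries. In controls alone, 12 of 44 were higher and 4 lower at 3 than at 2 weeks, beside 17.4% and 20.4% of all genes. The fibrinogen chains were among them, with Fga at 14350 to 15945 CPM in 3-week controls and 4626 to 6230 CPM in 2-week controls. Thbs1, whose protein binds plasminogen, rose by 3.14 (adjusted p = 0.00356) on the log2 scale in the late controls, in the direction of Plaur.

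The patterns most like each member over the 12 libraries came from 10350 genes with a mean of at least 5 CPM, by Pearson's r of log2 CPM, given with no p since libraries share groups and depth. For Plat they were Slc8a2, Ephb3, Aspm, Unc5b and Mex3a (r of 0.993 to 0.997). For Plau they were Gucy1b1, Abl1, Ube2d1, Spns2 and Ulbp1 (r of 0.981 to 0.986). For Plaur they were Hilpda, Dph2, Cdca4, Cd3eap and Pvr (r of 0.966 to 0.977), and for Plg they were Serpind1, Tor1aip2, Apoh, Tmem183a and Proz (r of 0.992 to 0.994).

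No gene stood in more than 1 of these 4 lists. Slc8a2, first for Plat, averaged 29.2 CPM in NICD1/Akt samples and 0.0556 CPM in controls at 3 weeks. Pvr averaged 46.9 CPM in NICD1/Akt samples and 81.6 CPM in controls at 3 weeks, and 12.4 CPM in controls at 2 weeks. It thus shared with Plaur the higher level in late than in early controls. Between members, r was 0.86 for Plat and Plau, -0.89 for Plat and Plg and -0.78 for Plau and Plg, and 0.07, -0.28 and -0.31 for Plaur with Plat, Plau and Plg (12 libraries each).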

How the data were processed

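RNA of 12 mouse liver libraries was selected for poly(A) and sequenced from stranded libraries. After trimming, alignment and counting, the authors deposited 1 table of raw read counts per gene for either stage. The methods name mm10, STAR and HTSeq, while GRCm39, STAR 2.7 and Subread 2.0.6 stand in the submitters' processing notes. The pipeline behind the deposited counts was not settled, so no gene coordinates are given beyond the RefSeq promoter. GENCODE M21 gave symbols for 21573 of 21807 gene IDs, of which 11 carry the version of that release, and exon lengths were taken from it. Total counts were 13136892 to 19594839 per library, and libraries of the same group differed by a chi-square of 4.77 to 130 per gene, so none was a repeat deposit.

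With edgeR 4.0.16 in R 4.3.3, CPM and log2 fold changes were computed after TMM scaling and filterByExpr. The quasi-likelihood test was used, and p-values over the whole table of genes tested were adjusted by Benjamini-Hochberg, with a threshold of 0.05. The 6 libraries of a stage were fitted together. Comparisons between stages came from 1 fit of 12 libraries in 4 groups. The fit was tested on simulated data. The 4 genes and all lists were chosen with earlier results of these data known.

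Of each role list, up to 4 genes with the smallest adjusted p at 3 weeks and a mean of at least 1 CPM were named, and for each member the 5 genes most like it. Of the genes under this rule, 1 is not reported here by name, though it is in the counts of its list. Genes named beyond this rule (Krt8, Thbs1, Serpinb2, Mmp3, Egr1, Fos and Atf3, and Fga in controls alone) were chosen after their values were seen. The alternatives tried were the likelihood ratio test of edgeR, DESeq2 1.42.0, other scaling factors, no filter, 12 libraries in 1 fit, all 6 controls, and each library left out in turn. Leaving library 32 out of the 6 controls, and library 32 or 35 out of the comparison of stages within a group, was added after seeing the data.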

Additional observations from a re-analysis of the deposited data

Results flagged for a closer look

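For 8 genes of the wider system the fold change at 3 weeks differed from that at 2 weeks by the test of the difference itself (edgeR's quasi-likelihood test on 12 libraries, Benjamini-Hochberg adjustment over 13829 genes). The log2 fold change at 3 weeks minus that at 2 weeks was 1.82 for Plgrkt (adjusted p = 0.016), 2.13 for Mrc2 (adjusted p = 0.039) and 0.90 for Eno1 (adjusted p = 0.047). It was -0.97 for F12 (adjusted p = 0.047), -0.75 for Cpb2 (adjusted p = 0.045), -1.82 for Fga (adjusted p = 0.012), -1.66 for Fgb (adjusted p = 0.013) and -1.64 for Fgg (adjusted p = 0.012). As each of the 12 libraries was left out, the call was lost in 11 of 12 fits for F12 and for Cpb2, in 10 for Eno1 and in 9 for Mrc2, and in 0 for Plgrkt, Fga, Fgb and Fgg. Scaling by RLE or library size and no filter also ended the calls of F12 and Cpb2, and no filter that of Eno1.

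In controls alone, 3 minus 2 weeks was -1.78 for Plgrkt (adjusted p = 0.00216) and -0.90 for Eno1 (adjusted p = 0.00835), and 1.41 for Fga (adjusted p = 0.00397), 1.24 for Fgb (adjusted p = 0.00537) and 1.26 for Fgg (adjusted p = 0.00421). These 5 effects thus rest in part on a difference between the early and late controls, which cannot be told apart from the difference in Ddx3y given above.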

How the results depend on the processing

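No result reversed among those called. Scaling by library size only moved the all-gene median at 3 weeks to 0.77 (log2); the 3-week values became 5.58 for Plat, 5.50 for Plau, 0.42 for Plaur and -0.43 for Plg, which relative to that median are 4.81, 4.73, -0.35 and -1.20, close to 4.81, 4.75, -0.36 and -1.19 with TMM relative to its own median. It gave 11 lower pathway genes in place of 18, 5 above and 3 below between stages, and differences of 4.46 for Plau and -0.38 for Plg. Against all 6 controls, the 3-week values were 3.40 for Plat, 2.48 for Plau and 0.36 for Plaur, and the 2-week values 1.56 for Plau and -1.05 for Plaur. Against the 5 controls other than library 32, chosen after seeing the data, the 3-week values were 4.53 for Plat and 2.93 for Plau. At 2 weeks they were 3.36 for Plat, 1.88 for Plau and -1.19 for Plaur. With these controls 7 pathway genes were higher and 1 lower at 2 weeks, in place of 0. The sign of Plaur thus depends on which controls are used, and control library 32 is itself in doubt.

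Pathway genes above and below between stages, 3 and 5 with the quasi-likelihood test, were 9 and 11 with DESeq2 and 8 and 9 with the likelihood ratio test; below fell to 3 with RLE size factors and with no filter. With each library left out they were 1 to 10 above and 3 to 15 below, with 10 and 15 without NICD1/Akt library 35 and 1 and 3 without control library 32. Plat at 3 weeks was then 4.63 to 5.42, and the differences between stages were 1.83 to 4.06 for Plat and 3.62 to 4.46 for Plau. The cause was not tested. Of 1038 alternative values for single named genes, 941 kept their direction and side of the threshold, 59 lost their call and 38 gained one. No paired analysis was possible because the groups share no replicate number. Plau in late controls had 2 to 5 reads, which limits the precision of its fold.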
